A study of Microtus ochrogaster with 51 samples.

Results

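When RNA from the nucleus accumbens of single prairie voles was sequenced in bulk, 97 of 23038 genes were read in some animals and at 0 in many others. They were chosen by their values in the 42 libraries of the normalized table: a value of 0 in at least 14 libraries and a value of at least 20 in at least 2. A gene is called on in a library where its normalized count (reads divided by a size factor for the library) is at least 20, and detected where it is above 0. The genes are given by ID only, since the tables hold no gene names and 0 of the IDs matched the reference gene table of the species, so no function can be stated for them. These IDs also carry no cell type markers by name, so the dissected tissue could not be checked against its markers.

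The nucleus accumbens lies in the ventral striatum. It is known for its role in reward, and prairie voles, which form lasting bonds with a mate, need it for bond formation. All animals were bred in one facility and lived with a mate of the other sex. The normalized table holds 21 complete pairs. In 9 of them the animals were sampled after 2 weeks together, and in 12 after 2 weeks together and 4 weeks apart. A second table holds values in TPM (a level per gene length that adds up alike in every library) for these 42 animals and 9 more: 3 females and 3 males paired for 6 weeks, a female and a male of 1 further 2-week pair, and 1 separated male. The labels name 4 cohort batches. Cohorts 1 and 2 (2 and 7 complete pairs) hold only 2-week pairs, and cohorts 3 and 4 (5 and 7) only separated and 6-week pairs, so treatment and cohort cannot be told apart in the 42 libraries. A library is 1 animal, and in bulk tissue fewer cells of a type and less RNA per cell cannot be told apart. Reads on genes ranged from 20067514 to 37737711 per library, and 1 read was worth 0.635 to 1.55 normalized counts.

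Most of the 97 genes were low even where they were on. Their highest value ranged from 20.8 to 1849 normalized counts (median 44.3). It was at least 100 in 19 genes and under 50 in 55. Of the 4074 values, 48.7% were 0 and 12.6% were on. On in exactly 2 libraries were 41 genes, and 15 were on in exactly 3, 26 in 4 to 9, and 15 in at least 10. The most widely on gene was on in 27 libraries, and the rarest was at 0 in 39. A gene's highest library held a median of 18.04% of its counts over all 42, and 3 genes had at least 50% of their counts in 1 library. The ratio of normalized count to TPM, as a median over libraries, gives a gene's implied length relative to the median gene of the library. In single libraries the ratio can differ. ENSMOCG00000017679 (implied length 0.756) reached 373 TPM with at most 192 normalized counts, and ENSMOCG00000022860 (0.553) reached 18.7 TPM with at most 490. The median implied length was 0.553 in the 97 genes. It was 1.01 in the 14613 genes with at least 20 normalized counts in at least 2 libraries, and 79 of the 97 lay under the latter median.

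The limit of 14 libraries at 0 cut through a continuous range. At exactly 14 were 19 genes, and 15 genes that met the other condition were at 0 in 13 libraries and were not included. Of those just inside, ENSMOCG00000003871 reached 1849 normalized counts and ENSMOCG00000017679 reached 192. Just outside were ENSMOCG00000019385 with a highest value of 163 and ENSMOCG00000016550 with 161. A further 119 genes were at 0 in at least 14 libraries but on in only 1.

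**Figure D1:**
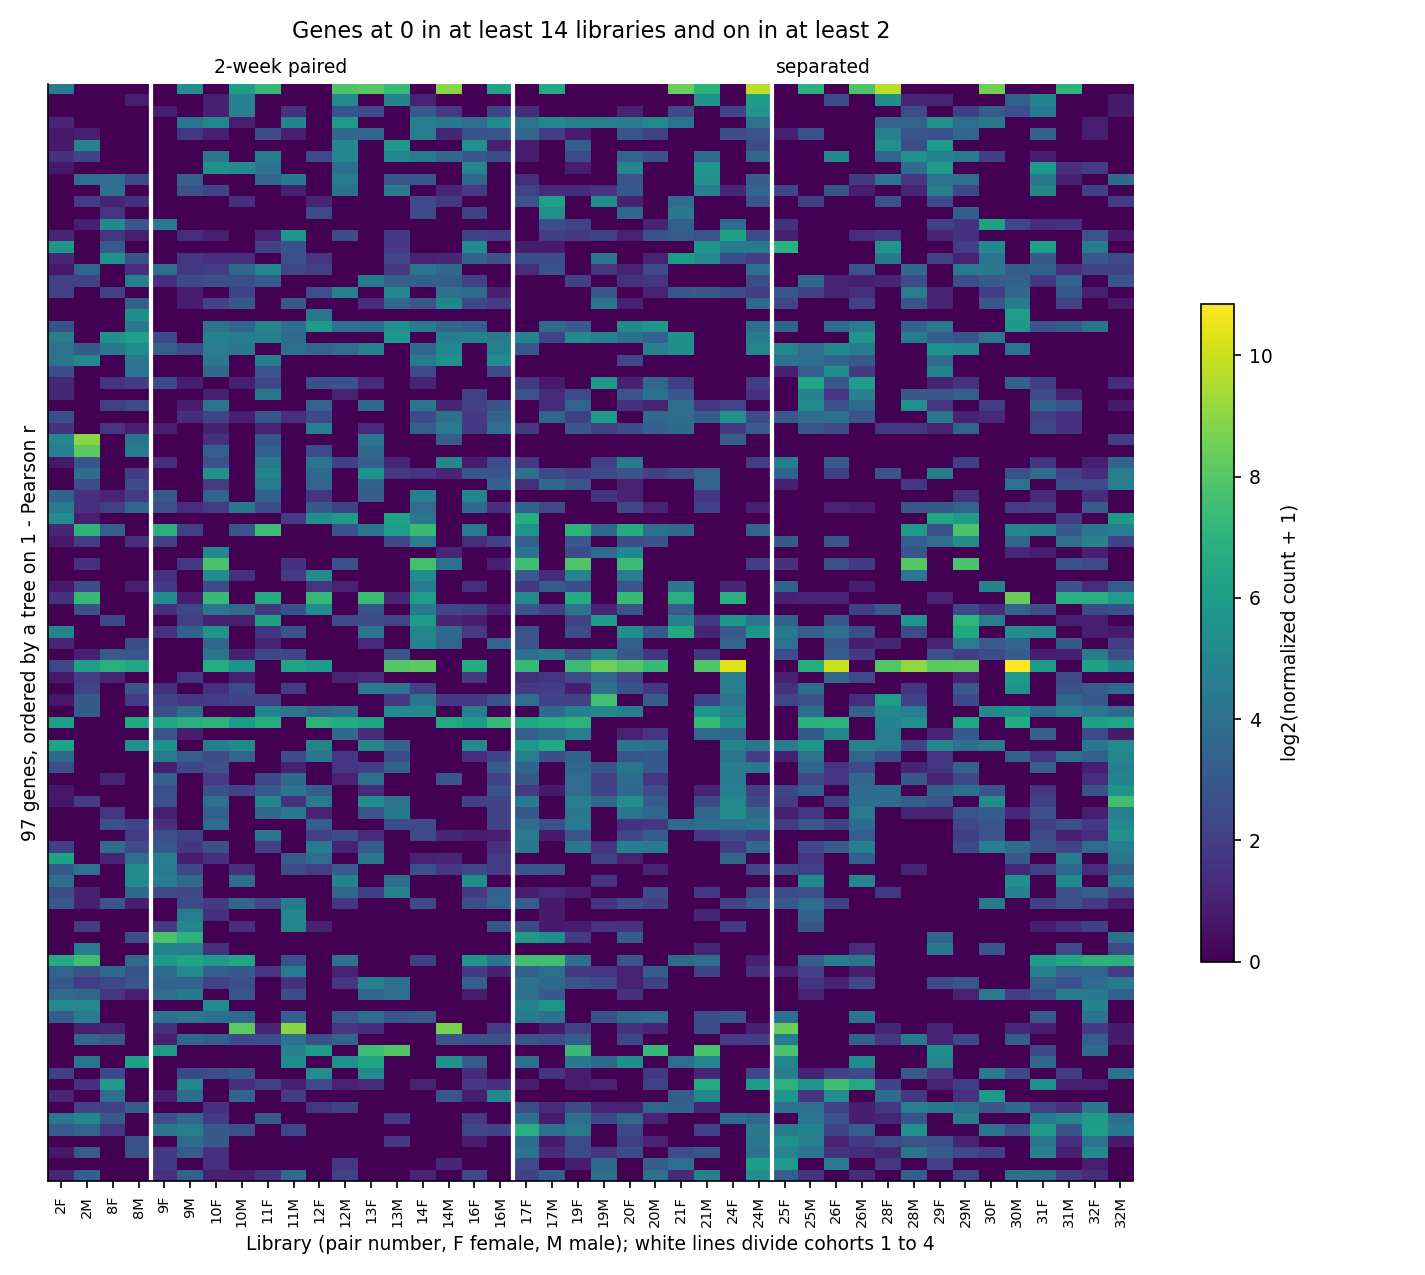
Each row is 1 of the 97 genes and each column 1 of the 42 libraries, with partners side by side; the color gives log2(normalized count + 1). High values are scattered over libraries of both treatments, and no block of at least 5 genes was on together.

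Every library carried some of these genes. The number on per library ranged from 5 to 21, with a median of 12, and the number detected from 31 to 69, with a median of 49.5. On were 12.9 ± 3.44 genes in 2-week paired females (SD, n = 9). The value for 2-week paired males was 10.8 ± 2.39 (SD, n = 9). It was 13.2 ± 2.63 for separated females (SD, n = 12). For separated males it was 11.8 ± 3.79 (SD, n = 12). The 4 ranges overlapped: 5 to 18, 6 to 15, 8 to 16 and 6 to 21. The fewest were on in the female of pair 8 (5 genes), and the most in the male of pair 32 (21 genes), whose partner had 11. The medians of the 4 cohorts were 11.5, 12.5, 12 and 12.5. Depth moved with detection: in the 14 libraries with the fewest reads a median of 42 genes was detected (31 to 68), and in the 14 with the most reads 55 (46 to 62). The median number on was 12 in both. The part of depth in which genes were chosen was not tested.

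**Figure D2:**
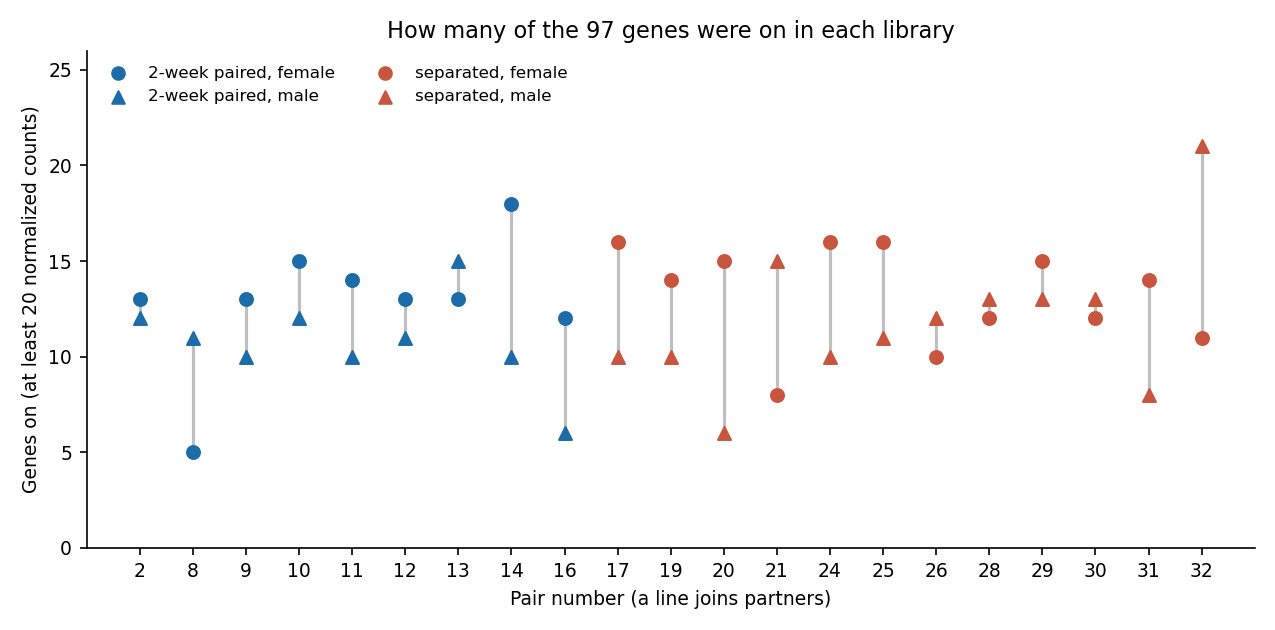
The number of the 97 genes that were on is plotted for both animals of each of the 21 pairs, in 2-week paired and separated voles. Values range from 5 to 21, and the groups overlap.

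The 41 genes that were on in exactly 2 libraries were spread widely: 37 of the 42 libraries carried at least 1 of them, and the male of pair 32 carried the most (7). The 2 libraries were both separated for 18 genes, both 2-week paired for 9, and 1 of each for 14 (34.1%), where 50.2% of all 861 couples of libraries have 1 of each. They belonged to 1 cohort for 17 of the 41 genes (41.5%), where 27.1% of all couples do. For 2 genes (4.88%) they were partners, where 2.44% of all couples are. One of these was ENSMOCG00000022860, on in pair 2. The other was ENSMOCG00000013075, at 44.3 normalized counts in the female and 25.1 in the male of pair 25. Over all 97 genes, 63 were on in both treatments, 11 only in 2-week paired libraries and 23 only in separated libraries, which are also more numerous (24 against 18). For the same reason, couples of separated libraries outnumber couples of 2-week libraries. These counts were not made for other genes, so no lean to a treatment can be read from them.

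To ask whether separation changed these genes, separated libraries were compared with 2-week paired libraries. The test called 3 of 97 (3.09%), 2 higher and 1 lower after separation, against 3.12% of all tested genes and 1 of the 393 other tested genes with a mean under 10 normalized counts (0.254%). With the pair as a replicate block none of the 3 calls remained (adjusted p of 0.244, 0.167 and 0.123 in limma). ENSMOCG00000001570 ranged from 0 to 7.41 normalized counts in the 18 2-week libraries (median 0) and from 0 to 36.0 in the 24 separated libraries (median 4.15). It was detected in 6 of 18 and 20 of 24, and it was on only in 3 separated females (pairs 25, 31 and 32). Its groups overlapped at low values. ENSMOCG00000015846 ranged from 0 to 8.12 in the 2-week libraries (median 0) and from 0 to 24.04 in the separated ones (median 4.17), and was detected in 6 of 18 and 21 of 24. Both were therefore low genes that were read in most separated animals and in a minority of 2-week animals. The lower detection lay mainly in the 2-week pairs of cohort 2. In the females and males of pairs 2 and 8 (cohort 1), ENSMOCG00000001570 was at 0.635 and 7.41, and at 0 and 5.41. ENSMOCG00000015846 was at 0 and 3.70 in pair 2, and at 3.13 and 8.12 in pair 8.

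The test was limma on log2(normalized count + 1) over 14613 genes, all 97 included, with Benjamini-Hochberg adjustment. The log2 difference was 1.68 (SE 0.45, adjusted p = 0.0298) for ENSMOCG00000001570 and 1.65 (SE 0.43, adjusted p = 0.0234) for ENSMOCG00000015846. For the gene called lower it was -1.41 (SE 0.30, adjusted p = 0.00562); its counts lay mainly in animals of 1 sex, and it is not described further. That call was also lost with edgeR (adjusted p = 0.0513), with DESeq2 (0.0580), without cohort 2 (0.150 in limma) and without cohort 4 (0.292 in limma). Over the 97 genes the median log2 difference was 0.07, and 53 (54.6%) were above 0. Over all tested genes the median was -0.0016, and 49.7% were above 0. With the pair as a replicate block limma called none of the 97 and 13 of all 14613 genes. At an unadjusted p of 0.05 in that fit there were 9 of the 97 and 1499 of all genes. The log2 differences were the same. Without the 2-week pairs of cohort 2, the log2 difference of ENSMOCG00000001570 was 0.77 (adjusted p = 0.539) and that of ENSMOCG00000015846 was 0.50 (0.696). Without the separated pairs of cohort 4 they were 1.44 (0.387) and 0.95 (0.562). Leaving out pair 16, 25 or 29 ended both calls (adjusted p between 0.0546 and 0.0759), with log2 differences of 1.49 to 1.65. Leaving out pair 11 or 12 ended that of ENSMOCG00000001570 (0.0544 and 0.0570), with a log2 difference of 1.59.

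In the libraries of the TPM table that this test did not use, the difference was not seen in every animal. ENSMOCG00000001570 was at 0.209 TPM in the further separated male, and at 0.106 and 0 TPM in the further 2-week female and male. In the 6 animals paired for 6 weeks it ranged from 0.0180 to 0.779 TPM. ENSMOCG00000015846 was listed at 0 in the separated male and in the further 2-week pair. Among the 6-week animals it was listed at 0 in both of pair 22, at 0.131 and 0.134 in pair 18, and at 0.311 and 0.365 in pair 27. The highest value of ENSMOCG00000015846 in the 42 libraries was 1.60 TPM.

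Partners had lived together, the separated ones until 4 weeks before sampling. Pairs were compared with each other within cohorts, by an F test in limma over both partners of all 21 pairs. Differences among pairs were called for 7 of the 97 genes (7.22%), against 43.9% of all 14613 genes. Of the 97, 72 had a mean under 10 normalized counts, and of the 393 other tested genes with such a mean 7.12% were called. Of the 25 with a mean of at least 10, 2 were called when only genes with such a mean were tested, against 45.3% of those 14151 genes. Genes matched on level within that range were not compared. ENSMOCG00000020574 had the smallest p. It was on in both partners of pair 2 (99.8 in the female, 191 in the male), pair 9 (56.4 and 84.1) and pair 10 (58.3 and 82.9). It was also on in both partners of the separated pairs 17 (190 and 188), 31 (62.0 and 87.5) and 32 (128 and 130). Elsewhere it reached 48.2 and 17.4 in pair 16, 23.9 and 16.99 in pair 26, and 15.9 or less in the other 13 pairs. Both animals of a pair were thus high or low together, in both treatments (F = 9.80, adjusted p = 4.12e-06).

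ENSMOCG00000016515 was carried by pairs 9 and 17. It was at 219 normalized counts in the female and 125 in the male of pair 9, and at 58.7 and 40.8 in the separated pair 17. It was at 15.03 in the male of pair 32, at 10.6 or less in 4 other libraries, and at 0 in the remaining 33 (F = 4.81, adjusted p = 0.000948). Without pair 9 the adjusted p was 0.217. ENSMOCG00000018831, among the 7 and singled out after its values were seen, was at 0 in 36 libraries. Its 6 other libraries were both partners of pair 2 (34.9 and 33.3), both of pair 17 (28.1 and 48.7), and the females of pairs 10 (37.04) and 32 (29.1), with an adjusted p of 0.0260.

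**Figure D3:**
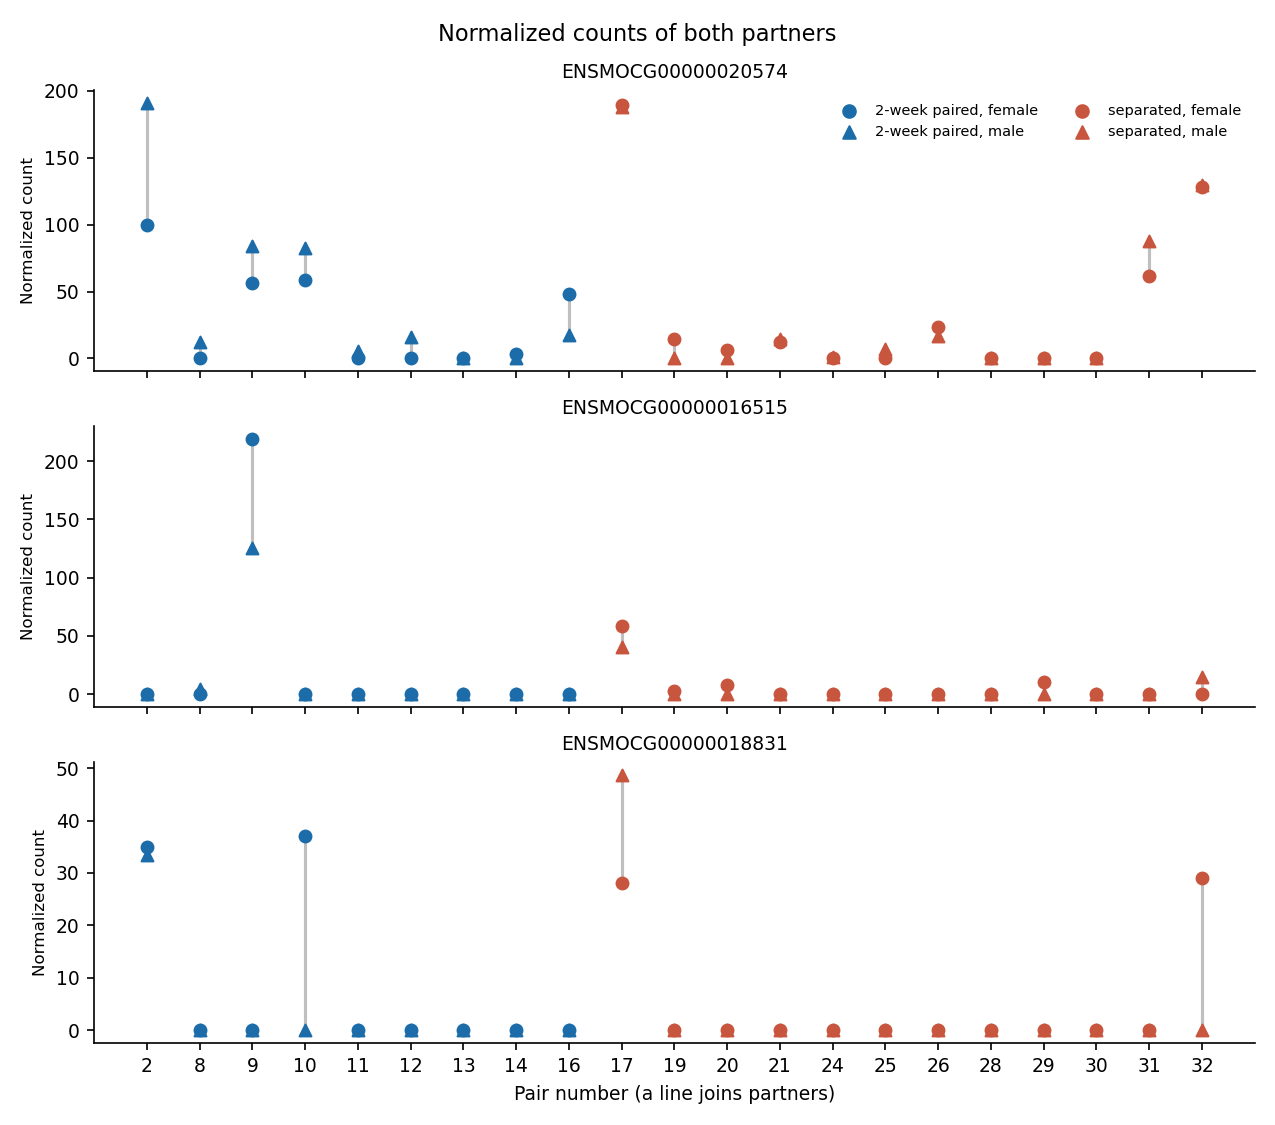
Normalized counts of 3 genes called for differences among pairs are plotted for the female and the male of each of the 21 pairs. ENSMOCG00000020574 is high in both animals of pairs 2, 9, 10, 17, 31 and 32, ENSMOCG00000016515 in both of pairs 9 and 17, and ENSMOCG00000018831 in both of pairs 2 and 17.

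The same genes were also read in the 3 6-week pairs and in the further 2-week pair 15. Neither the choice of genes nor the test used these pairs. In both animals of pair 15 all 3 genes were listed at 0. Of the 6-week pairs, pair 18 had 5.86 TPM of ENSMOCG00000020574 in the female and 10.9 in the male, beside 0.277 and 0.155 in pair 22 and 0 in both animals of pair 27. ENSMOCG00000018831 was at 2.39 and 3.99 TPM in pair 18 and listed at 0 in the other 4 6-week animals. ENSMOCG00000016515 was at 2.76 TPM in the female of pair 18 and listed at 0 in its partner and in the other 4. Both partners of pair 18 were thus high for 2 of the 3 genes. In the other 6-week pairs and in pair 15 no animal was high for any of the 3.

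Most genes called among pairs moved with the main axis of variation of all tested genes. The first principal component held 30.2% of the variance, and across the 42 libraries the absolute Pearson r with it was 0.55 to 0.81 in 6 of the 7 called genes (0.81 in ENSMOCG00000020574), 0.18 in the other one, ENSMOCG00000005258, and 0.13 (median) in all 97. With this component as a covariate limma called none of the 97 and 9 of all 14613 genes. At an unadjusted p of 0.05 in that fit there were 8 of the 97 and 1148 of all genes. The adjusted p of ENSMOCG00000020574 with this covariate was 0.564. The part of this component in the differences among pairs was not tested further. Of the tested genes, ENSMOCG00000019045 was most like ENSMOCG00000020574 (r = 0.83 on the log2 scale over 42 libraries), and ENSMOCG00000015374 ran most opposite to it (r = -0.83). Neither is among the 97. ENSMOCG00000019045 was also high in the 6-week pair 18, at 66.0 and 78.9 TPM, beside 11.96 to 20.5 in the other 4 animals of that group.

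Over all 97 genes, those called among pairs included, partners shared little. A gene was on in at least 1 partner in 454 combinations of gene and pair, and in both partners in 60 of them (13.2%). The number on in both animals of a pair ranged from 0 in pair 11 to 7 in pair 10, with a median of 2, and 69 genes were on in both partners of no pair. The Jaccard index, the number on in both animals divided by the number on in either, was 0.137 ± 0.0853 for partners (SD, n = 21 pairs). Between the same animals and non-partners of the other sex in their cohort it was 0.114 ± 0.0222. This second SD is over the means of each pair's non-partner combinations. Such means vary less than single indices, so the 2 SDs are not alike. The difference of 0.0231 was smaller than its spread over pairs (SD 0.0918), and partners had the higher index in 11 of 21 pairs. It was 0.00673 ± 0.113 in the 9 2-week pairs and 0.0354 ± 0.0753 in the 12 separated pairs. In pair 10 the index was 0.350 for partners and 0.133 for non-partners, and in pair 11 it was 0 and 0.1202. Gene by gene, the correlation of female and male partners over the 21 pairs, after removal of cohort and sex means, had a median of 0.015 in the 97 genes. It was 0.088 in the 393 other low genes and 0.389 in all tested genes.

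The 97 genes did not come in sets. With a tree on 1 minus the Pearson correlation of log2(normalized count + 1), 0 sets of at least 5 genes joined at a correlation of 0.7, and 89 genes joined no other. Over the 4656 couples of genes the median correlation was 0.0024; it was above 0.5 in 36 couples and below -0.5 in 7. In the 4 couples that joined, both genes were on in 0 to 2 libraries and detected in 4 to 19. ENSMOCG00000022860 and ENSMOCG00000013034 had the highest correlation (r = 0.88). They were at 490 and 281 normalized counts in the male of pair 2 and at 31.1 and 26.1 in its partner, and at 17.1 and 20.7 in the male of pair 8. All other libraries held 12.1 or less of ENSMOCG00000013034. The highest value of each was thus in 1 animal, a 2-week male, and its partner came second. In the libraries of the TPM table only, ENSMOCG00000022860 was listed at 0 in all 9, and ENSMOCG00000013034 was at 0.055 TPM in 1.

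Single genes showed an all-or-none pattern. The choice of genes, by 0 in at least 14 libraries and at least 20 in at least 2, favors such a pattern. Its share among other genes was not counted. ENSMOCG00000013928 and ENSMOCG00000012932, outside the 97 and described below, also had 2 separate levels. In 8 of the 97 genes the libraries fell into 2 levels with a gap of at least 3 on the log2 scale and at least 2 libraries above it. This gap was a criterion chosen after the values were seen, and 1 of the 8 is not described, because its detection leaned to 1 sex (Fisher's exact test, two-sided p = 0.0122). ENSMOCG00000014782 was at 0 in 16 libraries and between 28.5 and 162 normalized counts in the other 26. It was high in both partners of 7 pairs, in 1 partner of 12 and in neither of 2. The 26 libraries were 13 2-week paired and 13 separated. ENSMOCG00000012609 was at 0 in 25 libraries and between 8.17 and 80.3 in 17, with both partners high in 2 pairs and 1 partner in 13. ENSMOCG00000003903 was at 0 in 24 libraries and between 21.6 and 841 in 18, with both partners high in 2 pairs and 1 in 14. In these 3 genes, the 2 animals of a pair were more often unlike than alike. Unlike pairs are frequent for any gene with many libraries at both levels. How often non-partners were unlike was not counted, so no difference particular to partners can be read from this.

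The rarer ones of this kind were carried by 3 to 7 animals. ENSMOCG00000003316 was at 484, 408 and 289 normalized counts in the 2-week males of pairs 11, 14 and 10, and at 337 in the separated female of pair 25. All other 38 libraries held 4.79 or less, partners included. ENSMOCG00000001265 was at 67.1 in the separated male of pair 30, at 40.6 in the 2-week male of pair 8 and at 18.1 in the 2-week female of pair 12, and at 0 in the other 39. For both genes the high animals came from both treatments, and no 2 of them were partners. In the 9 further libraries ENSMOCG00000014782 was again at 0 in 3 and between 3.901 and 8.09 TPM in 6, within the 1.25 to 8.22 TPM of the high libraries. ENSMOCG00000012609 was at 15.05 TPM in 1 and listed at 0 in 8. ENSMOCG00000001265 was listed at 0 in all 9. ENSMOCG00000003316 was at none of the high values there: its highest value was 5.69 TPM, where the high libraries held at least 63.2 and the low ones 0.829 or less.

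**Figure D4:**
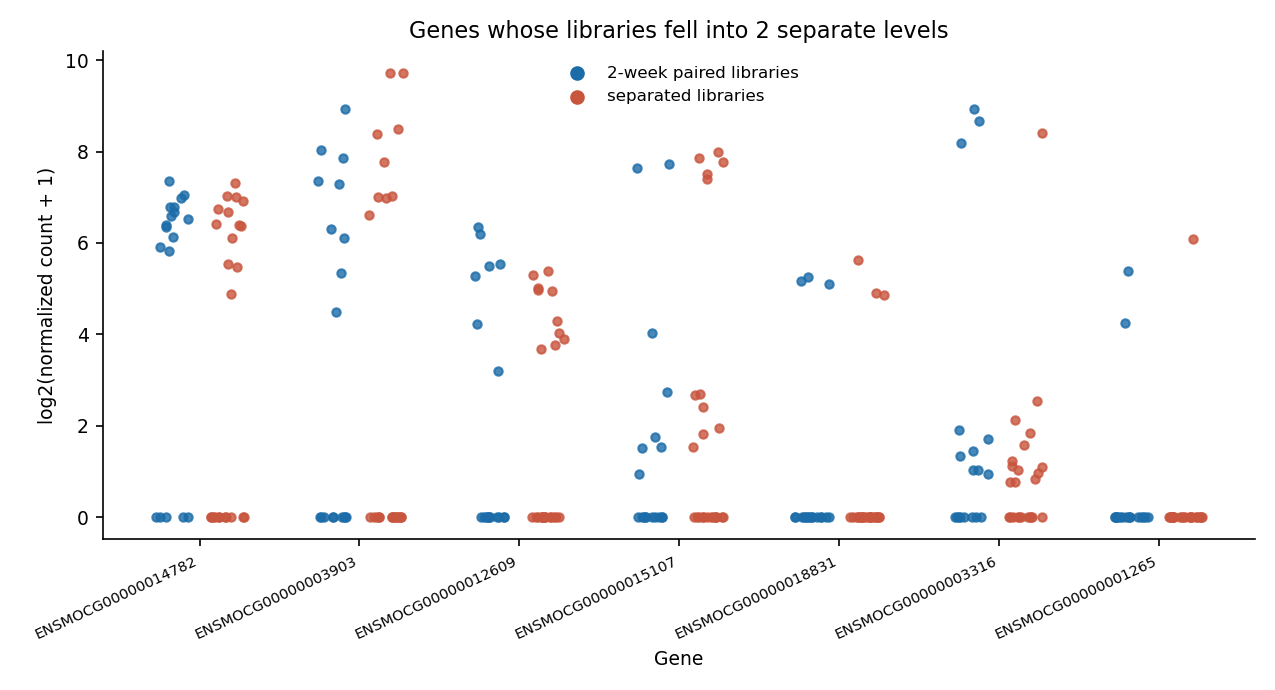
Values of 7 genes are plotted on a log2(normalized count + 1) axis, 1 point per library, for 2-week paired and separated libraries. Each gene has a lower and a higher level separated by an empty range, and both treatments hold libraries at both levels. The lower level reaches 15.2 normalized counts in ENSMOCG00000015107 and 4.79 in ENSMOCG00000003316, and is 0 in the other genes.

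ENSMOCG00000015107 was on in 7 animals and moved with a pair of more abundant genes outside the 97. It was between 167 and 252 normalized counts in the females of pairs 10, 14, 17, 19 and 20 and the males of pairs 28 and 29, and at 15.2 or less in the other 35 libraries. In none of the 7 pairs was the partner high. Of the tested genes, ENSMOCG00000012932 was most like it (r = 0.77) and ENSMOCG00000013928 most opposite (r = -0.80). In those 7 libraries and in the female of pair 11, ENSMOCG00000013928 was between 2.55 and 30.6 normalized counts; in the other 34 it was between 274 and 1314. ENSMOCG00000012932 was between 298 and 421 in these 8 libraries and in the male of pair 2, and at 19.2 or less in the other 33. The male of pair 2 had the lowest ENSMOCG00000013928 of the others, 274. In the 9 further libraries the female of the 6-week pair 18 had 1.26 TPM of ENSMOCG00000013928, where the other 8 had 47.2 to 192. It also had 17.5 TPM of ENSMOCG00000012932, where the others had 0.527 or less, and ENSMOCG00000015107 was listed at 0. Low ENSMOCG00000013928 thus came with high ENSMOCG00000012932 in all 9 animals that had it, and with high ENSMOCG00000015107 in 7 of them.

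Some of the 97 genes were mostly read in different libraries. ENSMOCG00000003871 and ENSMOCG00000003903 had the highest values of all, 1849 in the separated male of pair 30 and 841 in the separated female of pair 28. ENSMOCG00000003871 alone was detected in 22 libraries, ENSMOCG00000003903 alone in 12, both in 6 and neither in 2 (r = -0.62). Their implied lengths were 0.0189 and 0.0185 of the median gene. The coefficient of variation over libraries was 186% for each gene and 125% for their sum, which ranged from 0 to 1849. The sum of 2 unrelated genes can also vary less than each gene. No such baseline was computed for this couple or the next. ENSMOCG00000003871 ranged from 0 to 280 normalized counts in the 2-week libraries (median 53.1) and from 0 to 1849 in the separated ones (median 154), and ENSMOCG00000003903 from 0 to 487 (median 10.8) and from 0 to 841 (median 0). Neither passed the test of treatment. In the 9 further libraries, 4 held only ENSMOCG00000003871, 4 only ENSMOCG00000003903, and the female of pair 22 both (118 and 174 TPM). The highest of these was 2782 TPM of ENSMOCG00000003903 in the separated male of pair 23, beyond the 981 TPM reached in the 42 libraries.

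ENSMOCG00000002119 and ENSMOCG00000006168, singled out after their values were seen, had the most opposite values of any couple among the 97 (r = -0.79). Each was detected alone in 16 libraries, both were detected in 10, and no library lacked both. Their highest values were 50.3 and 42.4 normalized counts. The coefficient of variation over libraries was 104% and 102% for each gene and 40.2% for their sum, which ranged from 6.80 to 63.1. Their implied lengths were both 0.114 of the median gene. In the 9 further libraries 3 held only the first, 3 only the second and 3 both, and none lacked both. Whether the genes of these couples share sequence could not be checked here, and how reads that fit more than 1 gene were counted is not given in the sources used here.

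**Figure D5:**
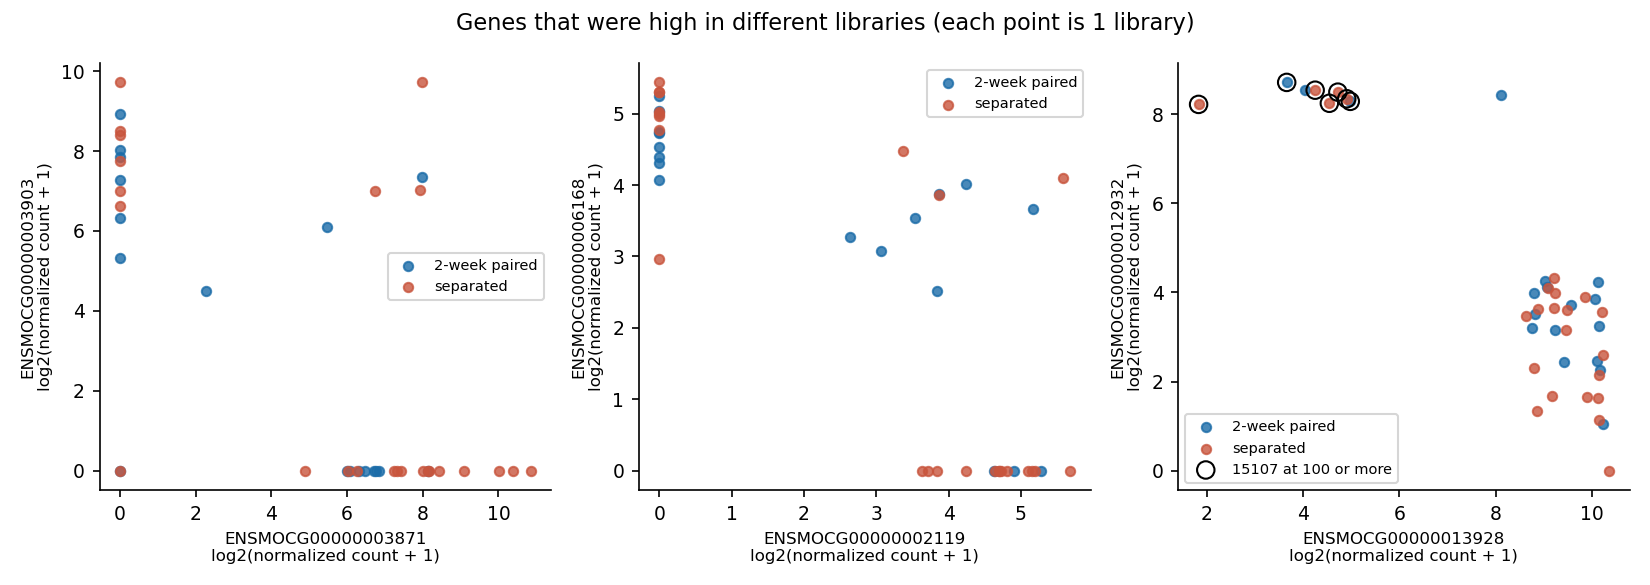
Each point is 1 of the 42 libraries on log2(normalized count + 1) axes, for 3 couples of genes; circles mark the 7 libraries with at least 100 normalized counts of ENSMOCG00000015107. Points lie along the axes in the first and second panels, with 6 and 10 libraries holding both genes. In the third they lie in 2 groups, apart from the male of pair 2. It is high for both ENSMOCG00000013928 and ENSMOCG00000012932 (274 and 345 normalized counts).

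Likeness to a gene outside the 97 was also seen in ENSMOCG00000002783, which was named after its values were seen. It was on in 7 libraries: the males of pairs 10, 12, 13, 21 and 24 and the females of pairs 28 and 31, at 27.04 to 63.7 normalized counts. ENSMOCG00000009429 was most like it (r = 0.85) and held 101 to 191 normalized counts in these 7 libraries. It was at 297 in the male of pair 30, where ENSMOCG00000002783 was at 9.39, and at 34.3 or less in the other 34. In 3 further libraries, the 2-week female of pair 15, the separated male of pair 23 and the 6-week male of pair 22, the values were 45.9, 47.0 and 14.7 TPM of ENSMOCG00000002783 and 267, 133 and 58.3 TPM of ENSMOCG00000009429. The other 6 held 0.817 TPM or less and 3.02 to 23.8 TPM. In all, 9 of the 97 genes had a tested gene with a correlation of at least 0.8. Among these, ENSMOCG00000022860 and ENSMOCG00000013034 were matched with each other and not with a gene outside the 97. Each correlation is the highest over all tested genes. The share of other tested genes that reach 0.8 was not computed, so the count cannot be called high or low.

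The 9 libraries that are in the TPM table only played no part in the choice of genes. Of the 97 genes, 92 were above 0 TPM in at least 1 of them and 5 in none. A gene was called on here when its TPM reached the lowest TPM of its on libraries in the normalized table; 58 genes were on in at least 1 of the 9 and 39 in none. The 6-week libraries had 46 to 67 of the genes above 0 TPM (median 51.5), within the 31 to 69 of the 42 libraries. The other 3 had 36, 29 and 30, and the latter 2 lay below every one of the 42. The same 3 had high summed TPM of the 97 genes, 1148, 709 and 2986, against a median of 363 in the 42, mostly from ENSMOCG00000003871 and ENSMOCG00000003903, without which the sums were 169, 76.1 and 204. In the 6-week pairs 18, 22 and 27, 7, 4 and 3 genes were on in both partners, with Jaccard indices of 0.226, 0.308 and 0.176. The 6 non-partner combinations of these animals had indices from 0 to 0.385, with a median of 0.0989, so partners lay within the range of non-partners.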

How the data were processed

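Polyadenylated RNA was sequenced in 1 library per animal; per the labels' protocols, paired-end reads were made with a Tecan mRNA kit. The authors deposited normalized counts (a signal: reads divided by a size factor; DESeq2 and DESeq per the submitters' processing notes, which give no version) and TPM values. For the aligner, counter, build and annotation: not given in the sources used here. Reads were recovered from the steps of the deposited normalized counts: 100% of values were whole within 0.01 of a read. For 2-week females of pairs 9 and 15 the labels and table columns disagreed, and the columns were followed.

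Tests used limma 3.58.1 (R 4.3.3; robust eBayes with a trend) on log2(normalized count + 1), for 14613 genes with at least 20 in at least 2 libraries, at an adjusted p of 0.05. Fold changes on this scale understate the change of low genes. Scripts were tested on simulated data. Partners share a pair number by label; their consensus correlation over genes was 0.385. edgeR 4.0.16 and DESeq2 1.42.0 on recovered reads were alternatives.

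The members and lists were chosen with earlier results of these data known. Named by rule were the 2 genes with the highest values, up to 2 per direction called for treatment, 2 called among pairs, and those beside the threshold; others are said to be chosen after their values were seen. Gender-linked genes were to be left out (Fisher p of 0.01 on detection, or adjusted p of 0.05 for sex); 0 met this, but 2 genes leaning to 1 sex were also left undescribed. Marker and gene lists could not be run without names.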

Additional observations from a re-analysis of the deposited data

Results flagged for a closer look

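Values of 9 genes and the number of genes on were looked at for single libraries that stood apart, in 20 groups of 9 libraries (2-week paired females and males); the groups of 12 separated animals are too large for this check. Chance gives about 1 in 20 such groups, and these genes were chosen for being high in few libraries. In the following cases the gap to the next value was wide against the range of the group. The female of pair 8 had 5 of the 97 genes on, where the next lowest female had 12. For ENSMOCG00000016515 the female of pair 9 had 219 normalized counts with all other females at 0, and the male of pair 9 had 125 with the next male at 4.51. For ENSMOCG00000020574 the male of pair 2 had 191, with the next at 84.1. For ENSMOCG00000003871 the female of pair 14 had 280 (next 114) and the male of pair 13 had 252 (next 88.4), and for ENSMOCG00000003903 the male of pair 14 had 487 (next 230.2). The male of pair 13 had 37.7 of ENSMOCG00000002119 (next 17.9), and the male of pair 8 had 8.12 of ENSMOCG00000015846 (next 3.70).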

How the results depend on the processing

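Of the 97 genes, 3 were called for separation. In limma the count was 0 with the pair as a replicate block and 0 without cohort 4. It was also 0 of 25 with a mean of at least 10 normalized counts. At an unadjusted p of 0.05 the counts in these settings were 9, 17 and 2. Over all genes they were 1499 of 14613, 1395 of 14613 and 2353 of 14151. With edgeR 5 of the 97 were called, beside 490 of all 14613 genes. The count was 1 to 4 without each pair in turn. The other settings gave 2 to 4 (2 with DESeq2), but the 2 without cohort 2 were both lower and held none of the 3. The 7 called among pairs became 0 when the first principal component was a covariate, 2 with a mean of at least 10, and 6 to 9 without each pair in turn, and the other settings gave 6 to 8. The cause was not tested, except that the higher mean removed 72 of the genes. The Jaccard index of partners minus that of non-partners stayed between 0.0121 and 0.0371 over 24 settings, and the number of sets stayed at 0 in all 24. The depth limits the low genes, since 1 read was worth 0.635 to 1.55 normalized counts.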
